A study of Homo sapiens with 4 samples.

Results

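The gene for Efp, TRIM25, and the genes of the 14-3-3 family were followed on 4 arrays of siRNA-treated endometrial cancer cells. The 8 genes were taken by name from the 18417 genes measured: TRIM25, which the siRNA targets, SFN, which encodes the Efp substrate 14-3-3σ, and the 6 YWHA genes, which encode the other 14-3-3 proteins. Each array held 1 RNA sample, from Ishikawa cells treated with siControl, Ishikawa cells treated with siEfp, HEC-1A cells treated with siControl or HEC-1A cells treated with siEfp. Both lines derive from human endometrial adenocarcinomas, Ishikawa with ERα and HEC-1A without it. They were grown in DMEM with fetal bovine serum, siControl is a duplex without a target, and the microarray methods name siEfp #A for Ishikawa cells. No source used here names the Efp duplex or the time of treatment for the HEC-1A arrays, so a difference of duplex or time and one between lines cannot be told apart.

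Efp is a tripartite motif protein whose RING finger acts as an E3 ubiquitin ligase, and 14-3-3σ and the antiviral sensor RIG-I are among its substrates. The 14-3-3 proteins form dimers that hold other proteins at phosphorylated serine or threonine residues and so change their location, partners or stability. 14-3-3σ, also called stratifin, is the epithelial member of the family. It is induced by p53 after DNA damage and keeps CDK1 and cyclin B out of the nucleus at the G2 checkpoint. The YWHA proteins are found in most tissues. Ubiquitination of 14-3-3σ by Efp acts on the protein, whereas the arrays measure mRNA.

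Signals are RMA values on the log2 scale, on which a difference of 1 is a 2-fold difference. Probe sets differ in how strongly they bind, so the level of 1 gene is not set against that of another. With 1 array per condition the difference within a line has no replicate check and no p-value. The only test is limma over the 4 arrays with the line as a block, which takes the 2 lines as replicates of 1 effect and leaves 1 residual degree of freedom. For each gene limma shrinks the SD toward a value shared by all genes, a prior SD of 0.131 with 5.54 degrees of freedom. For TRIM25 the SD of the gene itself was 0.054 and the SD used was 0.122. The SE, intervals and p-values thus rest mostly on the spread pooled over all genes of these arrays. They measure no spread between repeated experiments. With Benjamini-Hochberg adjustment and a threshold of 0.05, limma called 29 genes lower with siEfp, which is 0.157% of all genes, and 0.163% in either direction, of the 8 genes TRIM25 alone. An unadjusted p under 0.05 was found for 12% of all genes, and for TRIM25 and SFN among the 8.

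The epithelial and receptor markers separated the lines. ESR1, the gene for ERα, had signals of 6.91 and 6.65 on the Ishikawa arrays and 4.45 and 4.77 on the HEC-1A arrays, while PGR, the progesterone receptor gene, lay between 3.22 and 3.26 on all 4. The size depends on the probe sets used. Between the siControl arrays the median line difference of ESR1 and PGR was -1.21 with averaged probe sets and -2.11 with those of highest signal. The keratin genes KRT8 and KRT18 and the Müllerian transcription factor gene PAX8 had signals of 9.88 or more on every array. Of 8 epithelial markers 6 were called lower in HEC-1A cells by limma, as 17% of all genes were. Among them were CDH1, the gene for E-cadherin, with a log2 difference of -6.02, and EPCAM with -4.08. VIM, the gene for the mesenchymal filament vimentin, was higher in HEC-1A cells by 4.60. It was 1 of 7 fibroblast and stromal markers, and the other 6 were lower in HEC-1A cells on the siControl arrays. Of these 6 limma called 1 lower, COL1A1 with -0.91. Of the markers of other cell types, PTPRC of leukocytes lay between 2.90 and 3.17 on the 4 arrays, CD3E and CD14 had 3.79 and 4.89 as their lowest signals and stayed below 5.58, and CD68 of macrophages lay between 5.58 and 7.26. The endothelial genes PECAM1, CDH5, KDR and VWF lay between 3.14 and 5.21. Of the fibroblast genes, DCN and LUM lay between 2.79 and 2.96, PDGFRB, COL1A2 and COL3A1 between 4.38 and 5.58, and COL1A1 between 6.37 and 7.40. With siEfp none of the 8 epithelial markers was called by limma, against 0.163% of all genes. Their medians were -0.20 in Ishikawa and -0.25 in HEC-1A cells, against 0.01 over all genes in each line.

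The upstream sequences of TRIM25 and SFN are shown because their CpG counts set SFN apart from the other genes of the group with a listed promoter. Both give the 250 bases before the start site in RefSeq (GRCh38.p14), 5′ to 3′ along the gene, with every CpG in capitals. That of TRIM25 lies at chr17:56914050-56914299 on the minus strand and that of SFN at chr1:26862899-26863148 on the plus strand.
TRIM25: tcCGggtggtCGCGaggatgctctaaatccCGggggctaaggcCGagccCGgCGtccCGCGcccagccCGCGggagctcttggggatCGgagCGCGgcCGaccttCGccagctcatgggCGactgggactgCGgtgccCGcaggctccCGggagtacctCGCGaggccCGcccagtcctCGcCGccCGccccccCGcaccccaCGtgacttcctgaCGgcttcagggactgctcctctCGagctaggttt
SFN: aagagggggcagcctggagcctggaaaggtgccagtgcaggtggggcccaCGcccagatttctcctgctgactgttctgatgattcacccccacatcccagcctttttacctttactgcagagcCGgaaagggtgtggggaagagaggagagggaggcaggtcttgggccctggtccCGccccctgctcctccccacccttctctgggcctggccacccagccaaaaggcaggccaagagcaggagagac
The SFN sequence held 3 CpG and that of TRIM25 held 30. Among the 7 genes of the group with a promoter in the table, the 5 YWHA genes, without YWHAZ, held between 21 CpG (YWHAB) and 34 (YWHAH). Over 35116 promoters of the same length the median was 11, and 29.3% had as few as SFN. The GC content was 62.8% for SFN and 70.4% to 72.4% for the other 6. The GC box GGGCGG, searched on both strands with overlapping matches on a strand counted as 1, was present in all 7 windows, 1 time in SFN and 2 times in TRIM25, and in 42.6% of all promoters. A TATAAA box, searched on both strands, was present in YWHAH alone of the 7 and in 10.7% of all promoters. These are letters in a window, bases after the start site were not counted, and no binding or methylation was measured.

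**Figure D1:**
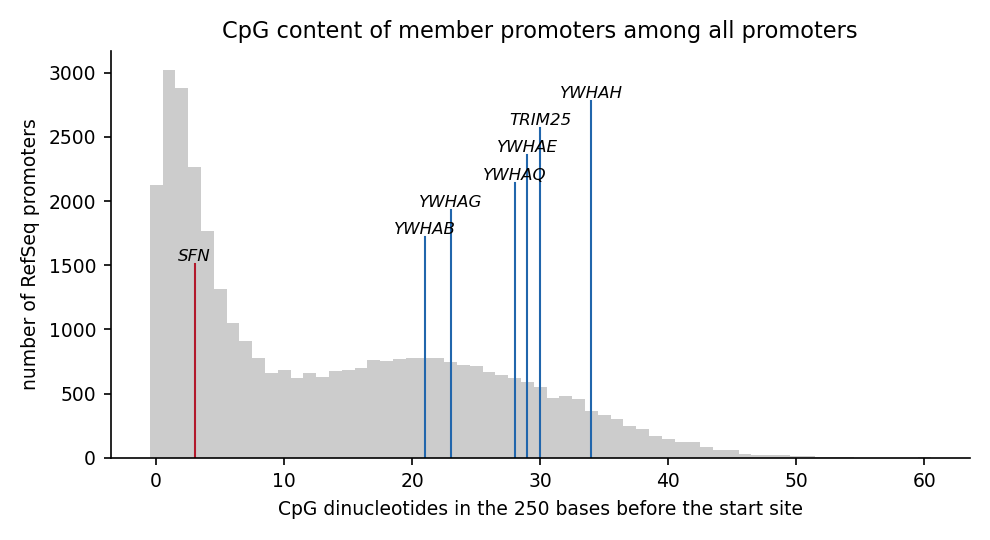
CpG dinucleotides in the 250 bases before the start site (x axis) of 35116 RefSeq promoters (grey bars, y axis number of promoters; counts above 60 are in the last bar). Lines mark 7 members: SFN, in red, has 3 CpG, and the others have 21 to 34.

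Efp mRNA fell with siEfp in both lines, to similar levels. TRIM25 (probe set 8016847) had a signal of 9.42 in the siControl array and 7.96 in the siEfp array of Ishikawa cells, and of 9.50 and 7.93 in those of HEC-1A cells. The 2 siControl arrays were high and the 2 siEfp arrays low, with no overlap. The differences were -1.46 (2.75-fold lower) in Ishikawa and -1.57 (2.97-fold lower) in HEC-1A cells, which left 36.3% and 33.7% of the siControl signal. At a 2-fold difference 0.804% of genes were lower in Ishikawa cells and 0.271% in HEC-1A cells. TRIM25 was the only one of the 8 in either line. Both lines together had 0.174% of genes at this size. The siEfp arrays were both below the siControl arrays for 9.1% of all genes. Over both lines the difference was -1.52 ± 0.12 (SE, limma), with a 95% interval of -1.81 to -1.22 and an adjusted p of 0.0342, the lowest of any gene and shared by 18. After a second quantile normalization the adjusted p was 0.0709, without the block it was 1, and the range over all alternatives was 8.36e-05 to 1.

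TRIM25 did not stand alone at this depth of decrease. Including TRIM25, 4 genes were as low as TRIM25 in both lines. The others were ICMT, which encodes the methyltransferase of prenylated proteins (-1.58 in Ishikawa and -1.81 in HEC-1A cells), TOR1B, a torsin ATPase gene (-1.50 and -1.58), and ZDHHC16, a palmitoyltransferase gene (-2.37 and -1.74), and these 3 were named after their values had been seen. In Ishikawa cells 29 genes were as low as TRIM25 or lower, itself included, and in HEC-1A cells 7. The pattern over the 4 arrays most like that of TRIM25 was that of ENDOD1, an endonuclease domain gene, at a distance of 0.23 between centred log2 values. The next were PTBP3, a splicing regulator gene (0.30), the palmitoyltransferase gene ZDHHC13 (0.32), DLST, which encodes a subunit of 2-oxoglutarate dehydrogenase (0.32), and the inositol monophosphatase gene IMPA2 (0.34). These genes were chosen by that likeness, which fixes the size of their differences. The differences lay between -1.18 and -1.35 in Ishikawa and between -1.17 and -1.41 in HEC-1A cells. The search covered 9208 genes with at least the median signal.

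**Figure D2:**
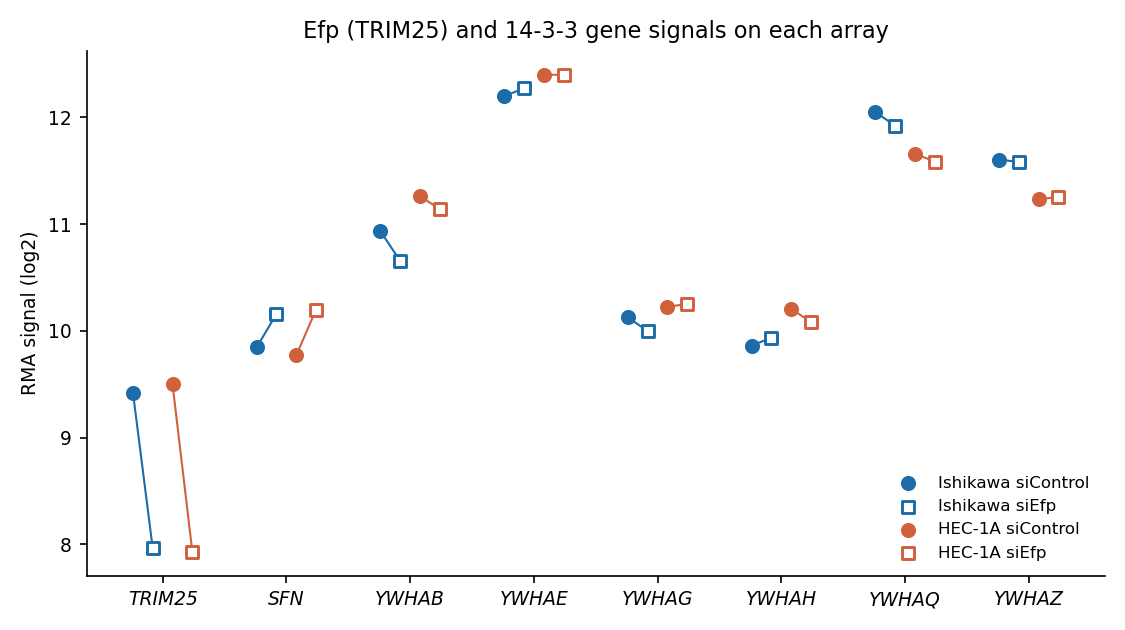
The y axis is the log2 RMA signal on each array, and the x axis gives the 8 genes. Blue is Ishikawa and orange HEC-1A, filled circles are siControl and open squares siEfp, and lines join the arrays of 1 line; TRIM25 drops from 9.42 to 7.96 and from 9.50 to 7.93, SFN lies higher with siEfp in both lines, and heights are not comparable between genes.

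SFN mRNA was measured higher with siEfp in both lines, by less than 1.5-fold, and did not pass the test. SFN (probe set 7899265) had a signal of 9.85 in the siControl array and 10.16 in the siEfp array of Ishikawa cells, and of 9.77 and 10.20 in those of HEC-1A cells. Both siEfp arrays lay above both siControl arrays, as they did for 12.9% of all genes. The differences were 0.31 (1.24-fold) in Ishikawa and 0.43 (1.34-fold) in HEC-1A cells. In Ishikawa cells 10.6% of genes were as high as SFN or higher, in HEC-1A cells 4.05%, and in both lines 225 genes, or 1.22%. Over both lines the difference was 0.37 ± 0.12 (SE), with a 95% interval of 0.08 to 0.66 and an adjusted p of 0.319 by limma. Over the alternatives the adjusted p ranged from 0.104 to 1, so no setting called SFN, although the interval for this gene alone did not include 0. The increase is one of mRNA, and the arrays hold no measurement of 14-3-3σ protein.

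**Figure D3:**
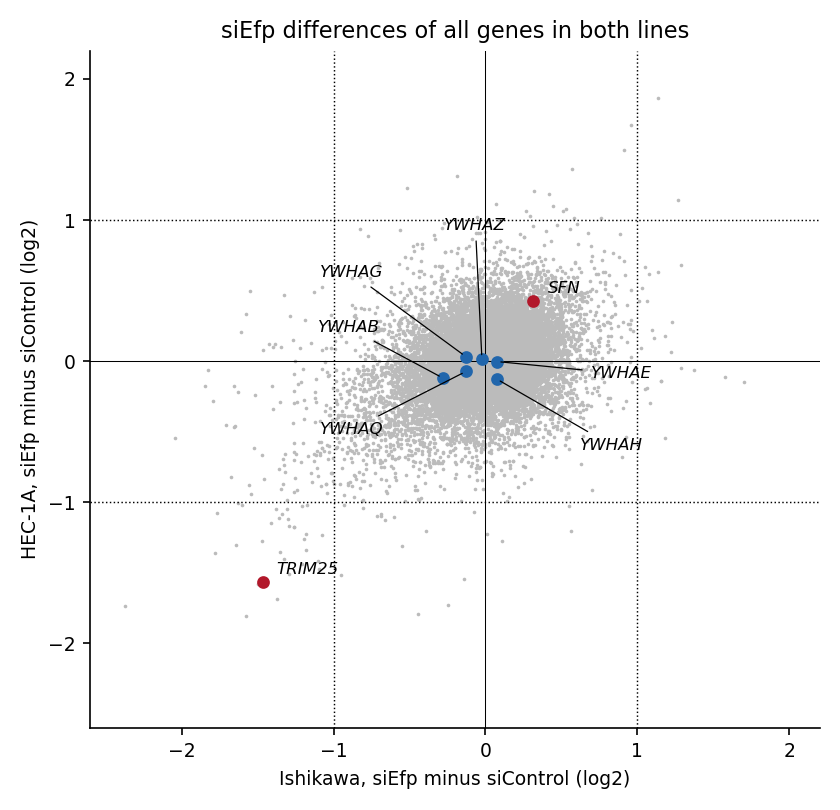
Difference between siEfp and siControl (log2) in Ishikawa (x axis) and HEC-1A cells (y axis) for 18417 genes in grey, TRIM25 and SFN in red and the YWHA genes in blue; dotted lines mark 2-fold. TRIM25 lies at -1.46 and -1.57, SFN at 0.31 and 0.43, and the YWHA genes near the centre.

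The 5 genes with the pattern over the 4 arrays nearest to that of SFN were chosen by that likeness, which fixes the size of their differences. ARID1A, a chromatin remodeling subunit gene that is often mutated in endometrial cancer, was at a distance of 0.05, and was higher with siEfp by 0.30 in Ishikawa cells and by 0.38 in HEC-1A cells. MED28, a Mediator subunit gene (0.05), SPNS1, a lysosomal transporter gene (0.07), MAPKAPK5, a stress kinase gene (0.07), and SEC24A, a gene of the COPII vesicle coat (0.07), followed.

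The 6 YWHA genes differed little between siEfp and siControl. Their differences lay between -0.28 and 0.07 in Ishikawa cells and between -0.13 and 0.03 in HEC-1A cells, so SFN was outside their range in both lines. The median was -0.08 in Ishikawa and -0.04 in HEC-1A cells, against 0.01 over all genes in each line. None of the 6 passed the test by limma, against 0.163% of all genes, or had an unadjusted p under 0.05, against 12%. For each of them the siEfp and siControl arrays overlapped across the lines, as for most genes. Both siEfp arrays lay above both siControl arrays for 12.9% of all genes and below them for 9.1%.

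YWHAB, the gene for 14-3-3β, which binds RAF kinases, had the lowest difference of the 6 in Ishikawa cells. Its signals were 10.93 with siControl and 10.65 with siEfp in Ishikawa, and 11.26 and 11.14 in HEC-1A cells. The siEfp array was the lower in each line, by 0.28 and by 0.12. Over both lines the difference was -0.20, with a 95% interval of -0.50 to 0.10 and an adjusted p of 0.596 (limma).

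YWHAQ, the gene for 14-3-3θ, had signals of 12.05 and 11.92 in Ishikawa cells, in the order siControl and siEfp, and of 11.66 and 11.59 in HEC-1A cells. The siEfp array was again the lower in each line, and the difference over both lines was -0.10, with an interval of -0.39 to 0.19. YWHAZ, the gene for 14-3-3ζ, had signals of 11.61 and 11.58 in Ishikawa and 11.24 and 11.25 in HEC-1A cells. Within each line the YWHAZ arrays lay close together, with -0.02 in Ishikawa and 0.02 in HEC-1A. The difference over both lines was -0.00, with an interval of -0.29 to 0.29, and turned to 0.03 after a second quantile normalization.

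YWHAE encodes 14-3-3ε, which escorts RIG-I and Efp to the mitochondrial adaptor MAVS. Its signals were 12.20 and 12.27 in Ishikawa and 12.40 and 12.40 in HEC-1A cells. The difference over both lines was 0.04, with an interval of -0.26 to 0.33. YWHAG, the gene for 14-3-3γ, had signals of 10.13 and 10.00 in Ishikawa and 10.22 and 10.25 in HEC-1A cells, and a difference over both lines of -0.05 (interval -0.35 to 0.25). YWHAH, the gene for 14-3-3η, had signals of 9.86 and 9.94 in Ishikawa and 10.21 and 10.08 in HEC-1A cells, and a difference of -0.03 (interval -0.33 to 0.28). These 3 genes and YWHAZ had differences of opposite sign in the lines, for YWHAE by a HEC-1A value near 0 that turned to 0.00798 after a second quantile normalization and to 0.0144 with the probe set of higher signal. YWHAB and YWHAQ were lower in both, as 26.7% of all genes were, and SFN alone of the 8 was higher in both, as 31.1% were. The intervals of the 6 YWHA genes reached down to -0.50 (YWHAB) and up to 0.33 (YWHAE) on the log2 scale.

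Copies of the YWHA genes limit how far their probe sets can be assigned. RefSeq lists 29 pseudogenes named after members: 10 each of YWHAQ and YWHAZ, 7 of YWHAE and 2 of YWHAB, and none of TRIM25, SFN, YWHAG or YWHAH. YWHAE had 2 probe sets. With siEfp, probe set 8011011 was 0.12 higher in Ishikawa cells and had -0.02 in HEC-1A cells, and probe set 8055476 had 0.03 and 0.01. Of the 20 probe sets next in number to the former 19 name genes of chromosome 17, where YWHAE lies, and of those next to the latter all 20 name genes of chromosome 2, where the pseudogene YWHAEP5 lies. Probe set 8174026, which the annotation gives to the pseudogene YWHAQP8, had signals of 8.82 and 8.83 in Ishikawa and 8.50 and 8.25 in HEC-1A cells. Which transcripts these probes bind was not tested.

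**Figure D4:**
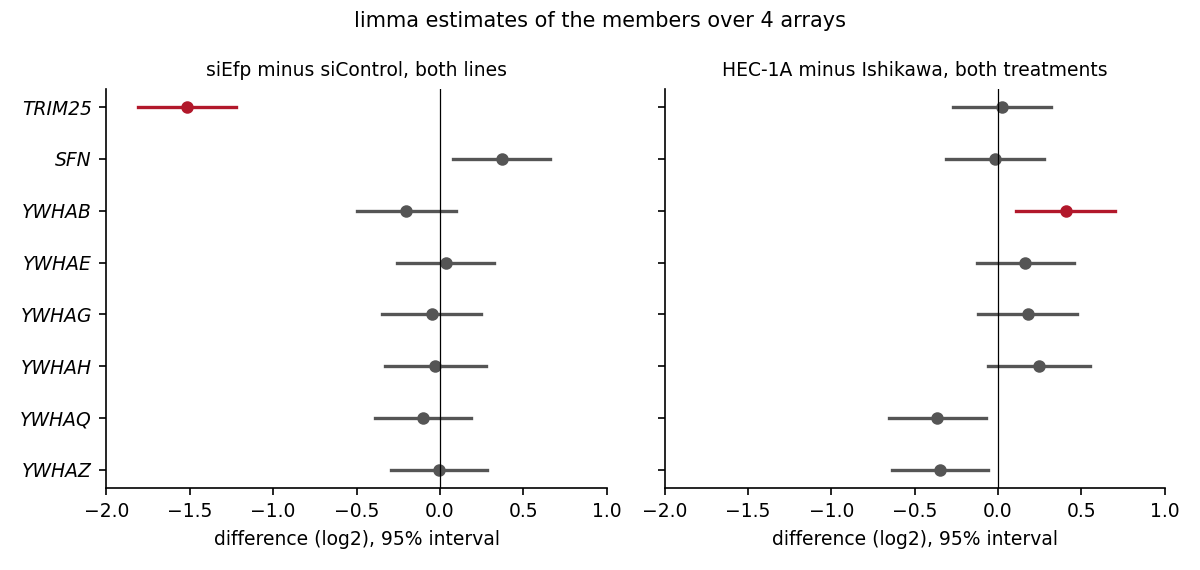
Differences of the 8 genes by limma (points, log2) with 95% intervals (lines), for siEfp minus siControl over both lines (left) and HEC-1A minus Ishikawa over both treatments (right). Red marks an adjusted p under 0.05: TRIM25 at -1.52 on the left and YWHAB at 0.41 on the right.

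TRIM25 and SFN had nearly equal signals in the 2 lines, and 1 of the 6 YWHA genes was called different between them. For TRIM25 the lines differed by 0.02 (HEC-1A minus Ishikawa, limma over both treatments, interval -0.27 to 0.32) and for SFN by -0.02 (interval -0.31 to 0.28). The arrays of the lines overlapped for TRIM25 and SFN. For all 6 YWHA genes they did not, as for 62.7% of all genes. YWHAB was higher in HEC-1A cells by 0.41 ± 0.12 (SE), 1.33-fold, with an adjusted p of 0.0442. That call was lost without the treatment term, with an adjusted p of 0.0939, and after a second quantile normalization, with 0.0504. YWHAQ was lower by 0.36 (adjusted p 0.0583) and YWHAZ lower by 0.35 (adjusted p 0.0654), and neither passed. Both did pass with an intensity trend in the prior variance (adjusted p 0.00497 and 0.00764) and without the genes of low signal (0.0228 and 0.0270). YWHAE, YWHAG and YWHAH had differences of 0.16, 0.18 and 0.25 and did not pass either, with adjusted p from 0.193 to 0.367 by limma. Of the 8 genes 1 was thus called, where limma called 35.2% of all genes, and at a 2-fold difference between the siControl arrays 12.2% of all genes and none of the 8 were counted.

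The near-equal SFN signal of the lines stood beside lower signals of many epithelial genes in HEC-1A cells. Of 27 genes of stratified and junctional epithelium, the type of tissue in which SFN is abundant, 21 had a probe set of their own, and 11 of them were called lower and 2 higher in HEC-1A cells by limma, against 17% and 18.3% of all genes. The lowest were CDH3, the P-cadherin gene, with a log2 difference of -5.17, the epithelial transcription factor gene GRHL2 with -5.12 and S100A14, a calcium-binding protein gene, with -2.68. CDH3 had signals of 9.82 and 9.62 on the Ishikawa arrays and of 4.86 and 4.24 on the HEC-1A arrays. At the other end were ITGA6, which encodes integrin α6, with 1.43, and S100A2 with 0.49. The median of the list was -0.60, against 0.01 over all genes. Some of the 21 were dim in both lines. Among them KRT14, IVL and SPRR1B had signals of 3.57 to 5.26 on the 4 arrays, below the median of all genes. The counts and medians of the list include such dim genes. With siEfp none of the 21 was called by limma, against 0.163% of all genes. An unadjusted p under 0.05 was found for 5 of the 21, against 12% of all genes. Their medians were 0.01 in Ishikawa and -0.05 in HEC-1A cells, with LAMB3, a laminin chain gene, lowest in Ishikawa (-0.77), CDH3 lowest in HEC-1A (-0.61) and PERP, a desmosome gene that p53 induces, highest in HEC-1A cells (0.53).

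**Figure D5:**
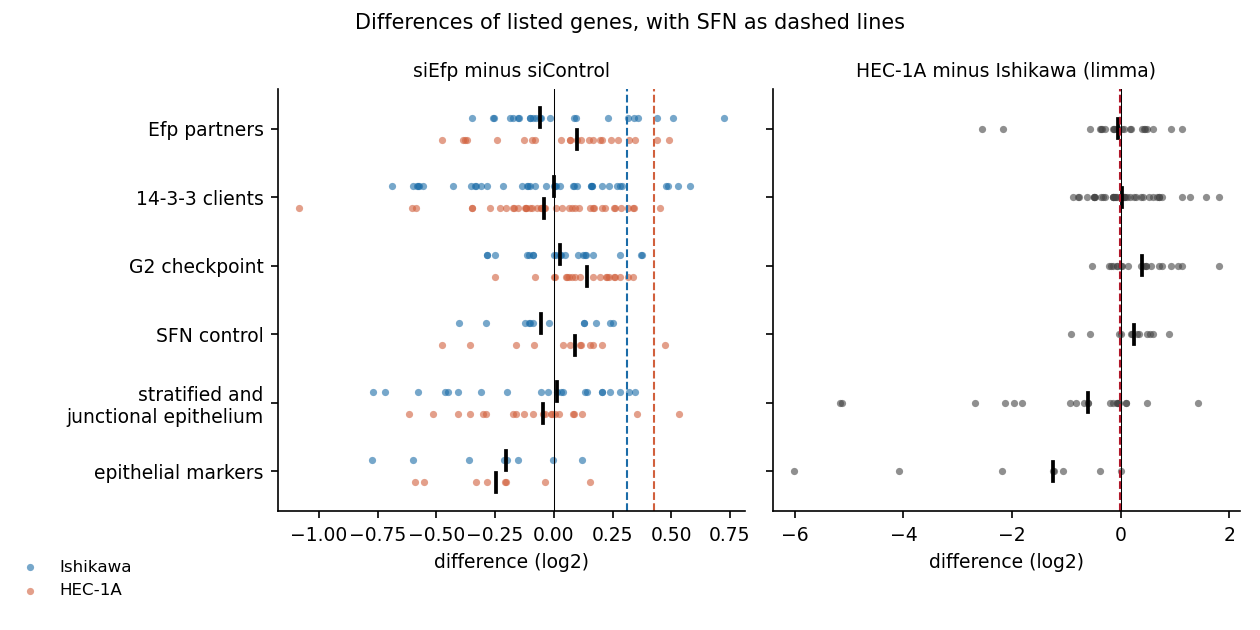
Differences (x axis, log2) of single genes (points) in 6 gene lists, with the median of each list as a black bar. The left panel gives siEfp minus siControl in Ishikawa (blue) and HEC-1A cells (orange), the right panel HEC-1A minus Ishikawa by limma, and dashed lines mark SFN (0.31 and 0.43 on the left, -0.02 on the right).

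Genes that act on SFN or on its protein differed between siEfp and siControl by up to 0.47 in size, and none passed the test. Of 14 listed, 12 had a probe set of their own. By limma 0 were called with siEfp, against 0.163% of all genes, and 2 had an unadjusted p under 0.05, against 12%. DNMT3B, a DNA methyltransferase gene, was lowest in Ishikawa (-0.40) and had -0.36 in HEC-1A cells, while DNMT1, which maintains methylation, had 0.25 and 0.17. COP1, which encodes another ubiquitin ligase of 14-3-3σ, had 0.24 and 0.11, and MDM2, a ligase gene and target of p53, had -0.09 and -0.47. EZH2, a histone methyltransferase gene, was highest in HEC-1A cells (0.47). BRCA1, which acts with p53 on SFN, had -0.02 and 0.21.

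The genes of the G2 checkpoint, where 14-3-3σ acts, had small differences. Of 20 measured, 13 were higher with siEfp in Ishikawa and 17 in HEC-1A cells, against 52.2% and 52.1% of all genes. The list also holds kinase genes of the G1 and S phases, such as CDK4 (0.28 and 0.23), and these counts include them. The medians were 0.03 and 0.14, against 0.01 in each line. None was called by limma, against 0.163% of all genes, and 1 had an unadjusted p under 0.05, against 12%. CDK1, the kinase that 14-3-3σ holds with cyclin B, had 0.13 in Ishikawa and 0.28 in HEC-1A cells. CCNB1, the cyclin B1 gene, had 0.01 and 0.11. AURKA, a mitotic kinase gene, had 0.37 and 0.24. PKMYT1, which encodes an inhibitory kinase of CDK1, was highest in Ishikawa (0.38) and WEE1, which encodes another, in HEC-1A cells (0.34). CDC25C, whose phosphatase product is bound by 14-3-3 in interphase, had -0.28 in Ishikawa and 0.31 in HEC-1A cells. CDKN1A, which p53 induces as it does SFN, had 0.10 and 0.00, and GADD45A, a further target of p53, 0.17 and -0.25.

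Among the genes whose products 14-3-3 proteins bind, 1 was at least 2-fold lower in HEC-1A cells and none in Ishikawa cells, against 0.271% and 0.804% of all genes. Of 42 listed, 39 had a probe set of their own, with a median of 0.00 in Ishikawa cells and of -0.04 in HEC-1A cells. By limma 0 were called over both lines, with 8 at an unadjusted p under 0.05, which 12% of all genes had. CRTC3, which encodes a CREB coactivator that 14-3-3 keeps in the cytoplasm, had signals of 7.56 and 6.87 in Ishikawa and 7.43 and 6.35 in HEC-1A cells. The siEfp array was the lower in each line, with -0.69 and -1.08, and the limma adjusted p was 0.107. NEDD4L, a ubiquitin ligase gene, had -0.60 and -0.23, and the polarity kinase gene MARK2 -0.57 and -0.60. KLC2, a kinesin light chain gene, had -0.56 and -0.59. At the other end CDKN1B, the gene for the CDK inhibitor p27, had 0.48 and 0.45. FOXO3, a transcription factor gene of the AKT route, had 0.58 and 0.11. Its signal was dim, with 4.49 and 5.08 in Ishikawa cells, below the median of all genes. YAP1, the Hippo pathway coactivator gene, had 0.16 and 0.07.

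The partners of Efp leaned lower with siEfp in Ishikawa and higher in HEC-1A cells, and none was called. Of 27 listed substrates, cofactors and modifiers, 23 had a probe set of their own. By limma 0 were called with siEfp, against 0.163% of all genes, and 3 had an unadjusted p under 0.05, against 12%. In Ishikawa cells 39.1% were higher with siEfp and in HEC-1A cells 65.2%, against 52.2% and 52.1% of all genes. The medians were -0.06 in Ishikawa and 0.10 in HEC-1A cells, against 0.01 over all genes in each line. These leanings were not tested. RIGI had signals of 7.51 and 7.95 in Ishikawa and 7.54 and 7.15 in HEC-1A cells, higher with siEfp in the former by 0.44 and lower in the latter by 0.39. MAVS, the adaptor to which RIG-I passes its signal, was the lowest in Ishikawa (-0.35) and had -0.38 in HEC-1A cells. ZC3HAV1, which encodes the antiviral protein ZAP that works with Efp, had 0.09 and 0.49. KLF5, the gene for a transcription factor that Efp ubiquitinates, had -0.15 and -0.37. USP15, which encodes a deubiquitinase of Efp, had -0.10 and 0.12. HERC5, a ligase gene for ISG15 of dim signal, was highest in Ishikawa (0.72) and had 0.35 in HEC-1A cells, and RNF31, the gene for a ligase of linear ubiquitin chains, had 0.51 and 0.07. RNF135, which encodes another ligase of RIG-I, had 0.36 and 0.21. ESR1 had -0.26 in Ishikawa cells, where it is expressed, and 0.32 in HEC-1A cells. The median siEfp difference of ESR1 and PGR depended on the probe sets used. It was -0.12 in Ishikawa and 0.15 in HEC-1A cells with averaged probe sets, and -0.18 and 0.34 with those of highest signal.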

How the data were processed

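Expression was measured on 4 arrays, 1 for each line and treatment, from 150 ng of total RNA per the labels. Values are log2 signals of probe sets as the authors deposited them. The submitters' processing notes name Affymetrix Expression Console and RMA, which quantile normalizes arrays and compresses differences of dim probe sets. Versions and genome build: not given in the sources used here. The probe set numbers are those of the Human Gene 1.0 ST annotation, whereas the paper names an exon array. Array medians were 5.63 to 5.69. Precision is set by how few arrays there are. Groups follow the sample titles.

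From these values, 19460 of 33297 probe sets had 1 gene symbol and were averaged per gene (18417 genes). Of them 19429 matched a RefSeq gene ID. All 8 members had a probe set and no filter on signal was applied. limma 3.58.1 (R 4.3.3) was fitted to all genes with line and treatment as terms, and p-values were adjusted over all genes by Benjamini-Hochberg. Calls were also counted at 2-fold. Other steps used Python 3.11.15 and matplotlib 3.10.9. The members and lists were chosen with earlier results of these data known. The lists come from general knowledge, and genes shared by lists count in each. The text names all members, the 5 genes most like TRIM25 and SFN, list members at the ends, up to 3 each way in each line and in the difference between lines, and markers. CCNB1, CDKN1A, YAP1, USP15 and KLF5 fall outside that rule and were named for their roles after their values had been seen.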

Additional observations from a re-analysis of the deposited data

Results flagged for a closer look

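For 4 of the 8 genes the siEfp difference had opposite signs in the 2 lines, and the difference between the lines was not tested, since 1 array per condition leaves no residual degree of freedom. Over all genes 31.1% were higher with siEfp in both lines and 26.7% lower in both. The rest had opposite signs or no difference in a line. HEC-1A minus Ishikawa, the siEfp differences were apart by -0.0771 for YWHAE, 0.162 for YWHAG, -0.200 for YWHAH and 0.0395 for YWHAZ. YWHAE had 0.07 in Ishikawa and -0.00 in HEC-1A cells, where it turned to 0.00798 and 0.0144 under the alternatives of a second quantile normalization and 1 probe set, YWHAG -0.13 and 0.03, YWHAH 0.07 and -0.13, and YWHAZ -0.02 and 0.02.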

How the results depend on the processing

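Of 240 values of the 8 genes under alternatives, 225 kept their side of the threshold or moved by less than 1 SD. Many of these could not change, so the count is no measure of stability. Leaving out dim genes or adding probe sets of several symbols returned the same differences for all 8 genes. Taking the brighter probe set could change the difference of YWHAE alone, and the threshold of 0.1 reused the main fit. TRIM25 had differences of -1.42 to -1.47 in Ishikawa and -1.56 to -1.58 in HEC-1A cells. Over both lines it was not called without the replicate block that pairs arrays of 1 line (-1.52, adjusted p 1), where limma called 0 genes lower and 0 higher and 252 genes had an unadjusted p under 0.05, nor after a second quantile normalization (-1.49, 0.0709), which also called 0 and 0. With an intensity trend 152 genes were called lower and 30 higher, without genes below the median signal 457 and 158, and at an adjusted p under 0.1, 76 and 9, against 29 and 1. After a second quantile normalization the difference over both lines turned to 0.0286 for YWHAZ, and that between lines to -0.0454 for TRIM25. The sign also turned for YWHAE in HEC-1A cells (0.00798, and 0.0144 with the brighter probe set) and, with siEfp arrays, for the lines in TRIM25 (-0.03) and SFN (0.04). At 1.5-fold 686 genes were lower and 274 higher with siEfp in Ishikawa, 375 and 246 in HEC-1A, and 2439 and 2249 in HEC-1A against Ishikawa siControl arrays. Without dim genes 15 were 2-fold higher in Ishikawa and 10 in HEC-1A, and 733 were lower and 589 higher between the lines (1331 and 919 with them). With the siEfp arrays in place of siControl the lines differed by 0.49 for YWHAB, 0.26 for YWHAG and 0.15 for YWHAH, against 0.33, 0.10 and 0.35. The cause of these shifts was not tested. YWHAB lost its line call without the treatment term and after renormalization, and YWHAQ and YWHAZ gained one with the trend, without dim genes and at an adjusted p under 0.1.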
